A study of Arabidopsis thaliana with 6 samples.

Results

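Organ boundaries are the narrow strips of slowly dividing cells that separate the shoot meristem from each new organ and the organs from each other. The 7 genes described here mark or build these boundaries in Arabidopsis thaliana: CUP-SHAPED COTYLEDON 1, 2 and 3 (CUC1, AT3G15170; CUC2, AT5G53950; CUC3, AT1G76420), LATERAL ORGAN FUSION 1 (LOF1, AT1G26780), LATERAL SUPPRESSOR (LAS, AT1G55580), LATERAL ORGAN BOUNDARIES (LOB, AT5G63090) and JAGGED LATERAL ORGANS (JLO, AT4G00220). They were chosen by locus, as named regulators of the boundary, and all 7 had a row among the 28775 loci of the deposited count table. The study asked which transcripts change when APETALA2 (AP2), a transcription factor of flowers and of the shoot meristem, is raised in the apex.

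The groups were 3 libraries from inflorescence apices treated with dexamethasone, which switches on AP2m3, and 3 from mock-treated apices. AP2m3 is a form of AP2 that carries changes in the site of the microRNA miR172. Plants of both groups grew at 21 °C in 16 h of light and 8 h of dark, were treated 2 weeks after bolting, and gave their apices 6 to 8 h later, with visible flower primordia taken off. The labels give no promoter, plant line, age in days or pooling, and no plants without the inducible construct were analysed here, so an effect of the steroid itself and one of AP2m3 cannot be told apart. The libraries are called Dx4, Dx5 and Dx6 (dexamethasone) and CT1, CT2 and CT3 (mock), after the headings of the count table. The labels do not tell whether libraries of a group came from separate plants, so the spread behind each p-value may be technical.

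Libraries held 1833795 to 2109788 counts with dexamethasone and 1633571 to 2196781 in mock. AP2 (AT4G36920) had 1091, 1178 and 1001 CPM (counts scaled to library size, TMM-adjusted) in Dx4, Dx5 and Dx6, against 55.3, 60.0 and 77.5 CPM in CT1, CT2 and CT3, so its level followed the labels. Of 7 apex markers, STM and KNAT1, homeobox genes of the meristem, averaged 72.1 and 98.6 CPM with dexamethasone and 64.8 and 80.6 CPM in mock, while WUS had 7 to 11 counts in every library and CLV3 had none in any. Of the 4 apex markers tested, CLV1, a receptor kinase gene of the meristem, was higher (92.3 CPM with dexamethasone, 55.7 CPM in mock; log2 fold change 0.72 ± 0.14; edgeR adjusted p = 0.00179). LFY, the LEAFY gene of young flower primordia, was lower (18.4 CPM with dexamethasone, 39.7 CPM in mock; -1.07 ± 0.24; edgeR adjusted p = 0.0051). At an edgeR adjusted p under 0.05, 5.86% of all tested genes were higher and 8.02% lower. Petal, stamen and carpel genes were present as well, with 7 floral organ markers summing to 618 to 643 CPM with dexamethasone and 649 to 804 CPM in mock, so the apices were not free of flower tissue. The sums of 8 dawn-phased clock genes (41.1 to 61.4 CPM with dexamethasone, 72.9 to 163 CPM in mock, highest in CT1) and of 7 green tissue and vascular markers (3781 to 4045 CPM with dexamethasone, 6689 to 8330 CPM in mock) were lower in every dexamethasone library than in any mock library. RBCS1A and LHCB1.3, photosynthesis genes that averaged 2635 and 1152 CPM with dexamethasone, make up most of the second sum.

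CUC1, CUC2 and CUC3 encode NAC transcription factors that act redundantly to keep neighbouring organs apart and to allow the meristem to form. LOF1 encodes a MYB factor and LAS a GRAS protein, both of which contribute to axillary meristems in the axils of leaves. LOB and JLO belong to the LATERAL ORGAN BOUNDARIES DOMAIN (LBD) family of plant-specific DNA-binding proteins. The microRNA miR164 cuts the transcripts of CUC1 and CUC2, but not that of CUC3, and this is known to set the width of the boundary.

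The miR164 sites are shown because they divide the CUC genes, and because NAC1, another target of the microRNA, is the gene of this pathway with the largest change below. The mature sequences are written 5′ to 3′ in DNA letters with the seed (bases 2 to 8) in capitals, and in each site capitals mark bases that pair with miR164a by A-T or G-C. All were read from RefSeq's annotation of assembly TAIR10.1, by locus. Its coordinates are not given, since the build behind the counts is not stated.
miR164a: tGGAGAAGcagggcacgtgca
miR164c-5p: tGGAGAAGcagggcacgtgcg
CUC1 site: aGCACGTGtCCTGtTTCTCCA
CUC2 site: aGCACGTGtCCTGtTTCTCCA
NAC1 site: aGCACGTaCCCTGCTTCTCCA
miR164b-5p has the same sequence as miR164a. CUC1 and CUC2 carry the same 21 bases, with 1 mismatch and 2 G-U pairs to miR164a, and the site of NAC1 has 2 mismatches and no G-U pair. In the transcript of CUC3 the best window had 6 mismatches and 4 G-U pairs, and in LOF1, LAS, LOB and JLO the best windows scored 7.5 to 8, counting 1 for a mismatch and 0.5 for a G-U pair, against 2 for CUC1, CUC2 and NAC1.

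No boundary gene was called with dexamethasone. Of the 5 that passed the filter on low counts, 0 were called by edgeR's quasi-likelihood test at an adjusted p under 0.05, where 13.9% of 15857 tested genes were called, 5.86% higher and 8.02% lower. DESeq2's Wald test and limma-voom also called 0 of the 5, against 8.6% and 13.4% of all genes. At an unadjusted p under 0.05 edgeR gave 1 of 5 (LOF1, lower), against 26.7% of all genes. The mean levels of these 5 genes lay between 6.09 and 21.6 CPM, and of the 4691 tested genes in that range 9.06% were called, with a median change of 1.13 (log2, either direction) among those called. In whole apices, fewer boundary cells and less RNA per cell cannot be told apart.

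**Figure D1:**
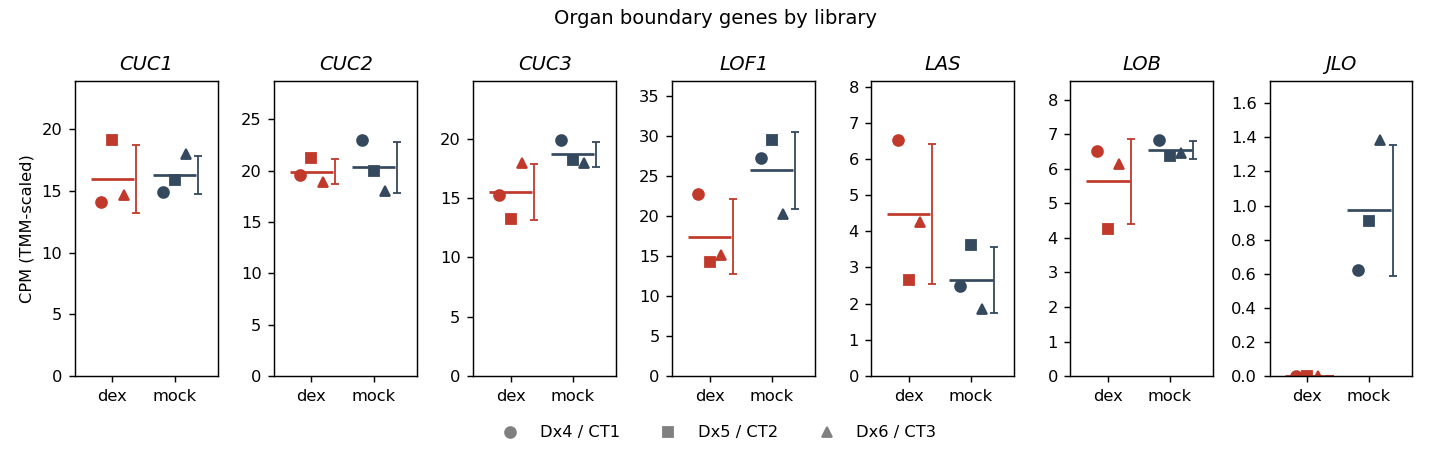
CPM of the 7 boundary genes in each library (vertical axis, linear, from 0, a scale per gene) with dexamethasone (red) and mock (dark). Points are libraries, horizontal lines are means and bars at the side are SD (n = 3 each). The groups lie close together for CUC1 and CUC2, LOF1 is lower with dexamethasone apart from Dx4, and JLO had counts in the mock libraries only.

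CUC1 and CUC2, the pair under miR164, were almost level between the groups. CUC1 stood at 14.1, 19.1 and 14.7 CPM in Dx4, Dx5 and Dx6, against 14.9, 15.9 and 18.0 CPM in CT1, CT2 and CT3. The dexamethasone range covered the whole mock range, and the highest and lowest of the 6 values were both dexamethasone libraries. The log2 fold change was -0.04 ± 0.23 (SE; 95% interval -0.51 to 0.43; edgeR adjusted p = 0.945). CUC2 stood at 19.6, 21.2 and 18.9 CPM in Dx4, Dx5 and Dx6, against 23.0, 20.0 and 18.0 CPM in CT1, CT2 and CT3. Here the mock range covered the dexamethasone range, and the log2 fold change was -0.02 ± 0.20 (95% interval -0.44 to 0.40; edgeR adjusted p = 0.967). In linear terms the intervals ran from 0.702-fold to 1.35-fold for CUC1 and from 0.738-fold to 1.32-fold for CUC2. Larger changes lie outside these intervals and smaller ones within them. The smallest change that could be called was not tested.

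CUC3, the CUC gene without a miR164 site, had 15.2, 13.3 and 18.0 CPM in Dx4, Dx5 and Dx6, against 19.9, 18.2 and 18.0 CPM in CT1, CT2 and CT3. All dexamethasone values were below or at the lowest mock value, with Dx6 and CT3 equal to 3 digits. Its log2 fold change of -0.26 ± 0.22 (95% interval -0.71 to 0.20) did not pass the test (edgeR adjusted p = 0.496). Groups without overlap were found in 31% of all tested genes, and CUC3 was the 1 boundary gene of the 5 tested that counted among them.

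The balance among the CUC genes was compared within each library, which removes the library's depth. The log2 ratio of CUC1 to CUC2 counts was -0.46, -0.15 and -0.36 in Dx4, Dx5 and Dx6, and -0.61, -0.33 and 0.00 in CT1, CT2 and CT3. The groups overlapped throughout, with a difference of -0.01 (dexamethasone minus mock; exact permutation test, two-sided, p = 1). The log2 ratio of CUC3 to the sum of CUC1 and CUC2 was -1.13, -1.58 and -0.89 in Dx4, Dx5 and Dx6, and -0.92, -0.97 and -0.99 in CT1, CT2 and CT3. Dx5 lay lowest, while Dx6 lay above every mock library, and the difference of -0.24 had an exact two-sided permutation p = 0.4 (0.8 adjusted over the 2 ratios). With 3 libraries against 3 this test cannot go below 0.1. The 3 CUC genes together summed to 48.9, 53.6 and 51.5 CPM in Dx4, Dx5 and Dx6, and to 57.8, 54.1 and 54.0 CPM in CT1, CT2 and CT3.

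LOF1, which keeps branches and the leaves below them apart, had the largest difference among the 5 tested boundary genes. Its values were 22.8, 14.3 and 15.1 CPM in Dx4, Dx5 and Dx6, against 27.3, 29.5 and 20.3 CPM in CT1, CT2 and CT3. Dx5 and Dx6 lay below all mock libraries, but Dx4 lay above CT3, so the groups overlapped. The means were 17.4 ± 4.69 CPM with dexamethasone and 25.7 ± 4.83 CPM in mock (SD, n = 3 each), a log2 fold change of -0.56 ± 0.22 (95% interval -1.03 to -0.10; edgeR adjusted p = 0.104). Without CT3 the difference passed the threshold (log2 fold change -0.72, edgeR adjusted p = 0.0134). Calls over all genes also rose in that fit, to 1816 higher and 1974 lower, against 929 and 1272 with all libraries. With the mean log2 CPM of the 8 dawn-phased clock genes as a covariate the log2 fold change of LOF1 was -0.24 (edgeR adjusted p = 0.662). The sum of these clock genes separated the groups, but the covariate was their mean log2 CPM. How far that mean separates the groups was not examined, so no conclusion is drawn from this fit. Its closest relative LOF2 had 5.44, 6.90 and 4.25 CPM in Dx4, Dx5 and Dx6, and 8.08, 8.63 and 5.54 CPM in CT1, CT2 and CT3, with a log2 fold change of -0.42 ± 0.36 (edgeR adjusted p = 0.496).

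LAS, which marks the axils where new meristems arise, was too low for the filter. It had 12, 5 and 9 counts in Dx4, Dx5 and Dx6 and 4, 8 and 4 counts in CT1, CT2 and CT3, or 4.48 ± 1.94 CPM with dexamethasone and 2.66 ± 0.91 CPM in mock (SD, n = 3 each). It was the 1 boundary gene whose dexamethasone mean was the higher, and its groups overlapped. Fitted without the filter, its log2 fold change was 0.73 ± 0.53 (95% interval -0.30 to 1.76; edgeR adjusted p = 0.461).

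LOB, which is known to activate the brassinosteroid-inactivating gene BAS1 in the boundary, had 6.52, 4.25 and 6.14 CPM in Dx4, Dx5 and Dx6, against 6.84, 6.36 and 6.46 CPM in CT1, CT2 and CT3. Dx4 lay between the mock values, and Dx5 and Dx6 below all of them. Its log2 fold change of -0.21 ± 0.35 has a 95% interval of -0.94 to 0.52 (edgeR adjusted p = 0.766), the widest of the 5. BAS1 itself averaged 26.7 ± 5.35 CPM with dexamethasone and 19.0 ± 0.84 CPM in mock (SD, n = 3 each), with a log2 fold change of 0.48 ± 0.20 that did not pass the test (edgeR adjusted p = 0.123).

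JLO had no count in Dx4, Dx5 or Dx6, against 1, 2 and 3 counts in CT1, CT2 and CT3. A count of 0 allows up to 3 counts, or 1.42 to 1.63 CPM in the dexamethasone libraries, and all mock values (0.62 to 1.38 CPM) lie under that, so no fold change is given. Of the 227 loci with 6 counts over all libraries, 14 (6.17%) had all of them in mock and 11 (4.85%) had all of them with dexamethasone. LBD31, which lies close to JLO on the same chromosome, likewise had 0 counts in each dexamethasone library and 1, 0 and 2 counts in CT1, CT2 and CT3. Neither gene passed the filter, and in the fit without it neither was called. JLO had a log2 fold change of -4.06 ± 1.73 in that fit (95% interval -7.46 to -0.67, edgeR adjusted p = 0.117). This value rests on 6 counts, all in mock. LBD31 had one of -3.15 ± 1.93 (95% interval -6.93 to 0.62, edgeR adjusted p = 0.348).

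Much of the spread of these genes was no larger than counting error. The coefficient of variation of CUC2 was 6.02% with dexamethasone and 12.4% in mock, where counting alone gives 16.1% and 15.8% for its mean counts. For CUC3 it was 15.2% with dexamethasone and 5.6% in mock, against 18.2% and 16.4% from counting. LOF1 lay above the counting value in both groups, at 26.9% with dexamethasone and 18.8% in mock, against 17.2% and 14.0%. LAS lay above it with dexamethasone, at 43.4% against 34.0%. Each coefficient rests on 3 libraries, and its difference from counting error was not tested. Together the 7 genes made up 0.00758% to 0.00851% of the counts in the dexamethasone libraries and 0.00828% to 0.00955% in the mock libraries.

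Per kilobase of exon the CUC genes and LOF1 stood highest in both groups, LOB lay below them, and LAS and JLO were lowest. In dexamethasone apices CUC2 led at 13.7 ± 0.83 CPM per kilobase, followed by CUC1 at 12.9 ± 2.21, LOF1 at 12.3 ± 3.30 and CUC3 at 10.8 ± 1.64 (SD, n = 3 each), and each of these 4 overlapped its neighbour in the order. LOB followed at 4.47 ± 0.97, LAS at 2.26 ± 0.98 and JLO at 0, with no overlap between neighbours from CUC3 downward. In mock apices LOF1 led at 18.1 ± 3.39 CPM per kilobase, ahead of CUC2 at 14.0 ± 1.74, CUC1 at 13.2 ± 1.27 and CUC3 at 13.0 ± 0.73, and these 4 again overlapped from neighbour to neighbour. LOB at 5.19 ± 0.20 stood clear of CUC3 above and of LAS at 1.34 ± 0.46 below, while LAS and JLO (0.89 ± 0.35) overlapped. LOF1 exceeded CUC2 in 3 of 3 mock libraries and CUC1 exceeded LOF1 in 2 of 3 dexamethasone libraries. These levels use the summed exons of RefSeq's annotation, and no 50-base word of LOF1, LAS, LOB, JLO or a CUC gene occurs in exons of another gene.

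**Figure D2:**
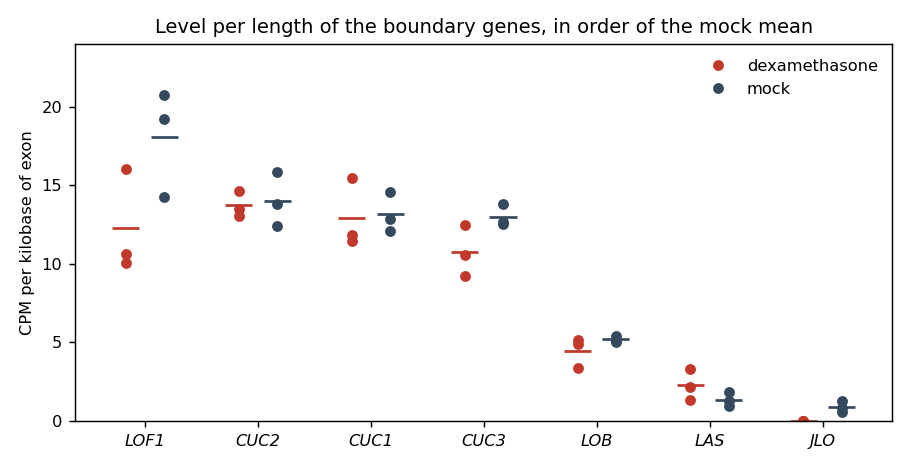
CPM per kilobase of exon (vertical axis, linear) of the 7 boundary genes, in order of their mock mean. Points are single libraries with dexamethasone (red, left) and mock (dark, right), and lines are means of 3. The CUC genes and LOF1 lie between 9.23 and 20.8, LOB between 3.36 and 5.42, and LAS and JLO lower.

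Around the boundary genes, 50 genes in 4 lists were read from the same fit: known regulators of CUC genes, the other NAC targets of miR164, partners and targets in boundaries and axillary meristems, and LBD relatives. Of these, 49 had a row and 26 passed the filter, of which 2 were higher, 5 lower and 19 not called, where 5.86% of all tested genes were higher and 8.02% lower. Their median log2 fold change was -0.05, against 0.003 over all tested genes. With 1 library left out, 1 to 2 were higher and 2 to 5 lower.

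Among 12 CUC regulators, 7 were tested, of which 2 were lower and none higher, against 8.02% lower and 5.86% higher of all tested genes. All 7 log2 fold changes were below 0 (median -0.44, against 0.003 over all tested genes). In the fit without the filter TCP3, which did not pass it, was called higher and TCP10 lower. ABS2, also called NGAL1, encodes a B3-domain protein. It had 2.17, 3.72 and 1.42 CPM in Dx4, Dx5 and Dx6, against 5.59, 7.72 and 7.38 CPM in CT1, CT2 and CT3, every dexamethasone library lying below every mock one. Its log2 fold change was -1.52 ± 0.44 (edgeR adjusted p = 0.0242), a call lost without CT2, Dx4 or Dx6 (adjusted p up to 0.156), with DESeq2 (log2 fold change -1.53, adjusted p = 0.105) and with the dawn-gene covariate (-1.64, 0.0585). AT3G11580, a locus without a symbol in RefSeq's table, had 2.72, 1.06 and 6.62 CPM in Dx4, Dx5 and Dx6, against 18.0, 7.27 and 9.69 CPM in CT1, CT2 and CT3. Its groups did not overlap either, at a log2 fold change of -1.63 ± 0.48 (edgeR adjusted p = 0.0313). That call was lost without CT1, Dx4 or Dx5 (adjusted p up to 0.135) and with the dawn-gene covariate (log2 fold change -1.22, 0.211), and the log2 fold change was -2.55 without Dx6.

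DPA4, a B3-domain repressor of CUC2 in leaf margins, averaged 7.93 ± 2.80 CPM with dexamethasone and 12.8 ± 1.02 CPM in mock (SD, n = 3 each), without overlap, and did not pass the test (log2 fold change -0.68 ± 0.29; edgeR adjusted p = 0.142). Of the class II TCP genes, whose products restrain CUC expression in organs, the 4 tested were not called. TCP2, TCP4 and TCP24 had log2 fold changes of -0.08, -0.13 and -0.02, and TCP10 one of -0.44 ± 0.16 (edgeR adjusted p = 0.0748). The groups of TCP10 did not overlap, and in the fit without the filter it was called lower (log2 fold change -0.43, edgeR adjusted p = 0.0399). TCP3 had 3, 12 and 10 counts in Dx4, Dx5 and Dx6, against 2, 2 and 3 counts in CT1, CT2 and CT3, and fitted without the filter its log2 fold change was 1.82 ± 0.64 (edgeR adjusted p = 0.041). Dx4 equalled CT3 in counts, and 84.5% of the exon sequence of TCP3 also lies in exons of another gene, so its count is uncertain to that extent. The 3 MIR164 precursors and RBE, a zinc-finger repressor of MIR164C, did not pass the filter either. The precursors had 0 to 2 counts a library, so no direction is given for them.

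Of the 4 other NAC targets of miR164, NAC1, a factor of auxin-dependent root branching, was higher. It had 32, 48 and 48 counts in Dx4, Dx5 and Dx6, against 1, 3 and 1 counts in CT1, CT2 and CT3. At 21.9 ± 4.11 CPM with dexamethasone and 0.82 ± 0.48 CPM in mock (SD, n = 3 each), its log2 fold change was 4.61 ± 0.41 (edgeR adjusted p = 2.77e-07), and 5.20 without CT2. Of the 50-base words in its exons 34.2% also occur in exons of other genes, on either strand. How far this affects its count was not tested. CUC1 and CUC2, whose sites are printed above beside that of NAC1, had log2 fold changes of -0.04 and -0.02 in the same libraries. ORE1, NAC080 and NAC100, with 0 to 6 counts a library, did not pass the filter. In all they had 4, 0 and 0 counts with dexamethasone, against 13, 2 and 4 in mock, the other direction from NAC1. Their best sites scored 3.5, 1.5 and 1.5, against 2 for CUC1, CUC2 and NAC1. Any part of miR164 in these values was not tested.

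**Figure D3:**
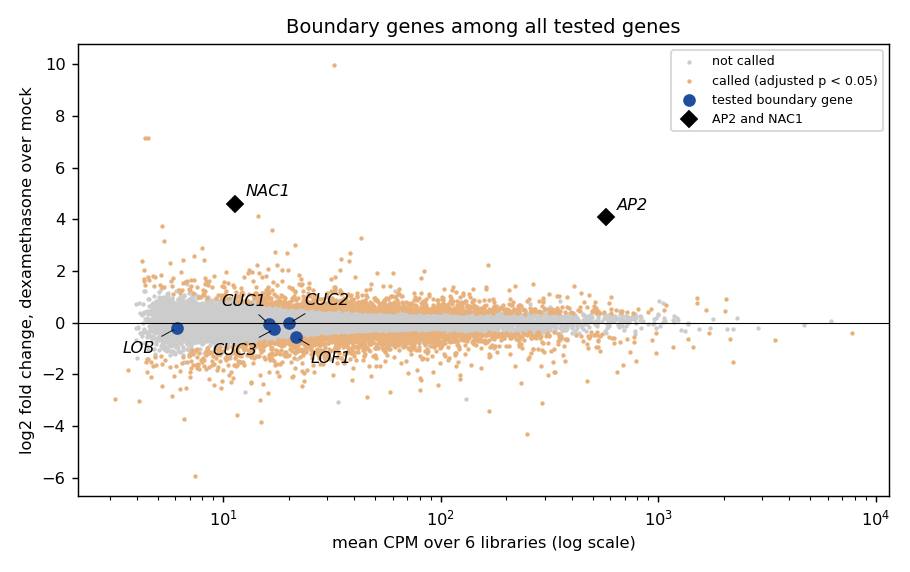
Log2 fold change of dexamethasone over mock (vertical axis) against mean CPM over the 6 libraries (horizontal axis, log scale) for 15857 tested genes. Grey genes were not called and orange ones were, at an edgeR adjusted p under 0.05. The 5 tested boundary genes (blue) lie among the genes not called, between -0.56 and -0.02, while NAC1 and AP2 (black) lie at 4.61 and 4.08.

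Among 21 partners and targets, 15 were tested, of which 3 were lower and none higher, with a median log2 fold change of 0.08. Of all tested genes 8.02% were lower and 5.86% higher. ATH1, a BELL homeobox gene of the stem base and of boundaries, had 38.0, 36.1 and 37.3 CPM in Dx4, Dx5 and Dx6, against 58.4, 56.8 and 54.9 CPM in CT1, CT2 and CT3. The libraries of each group lay within 4 CPM of each other and the groups far apart, at a log2 fold change of -0.61 ± 0.14 (edgeR adjusted p = 0.00622), and the call held in all 13 alternatives (adjusted p 0.00132 to 0.0463). LSH3, also named ORGAN BOUNDARY 1, is an ALOG-family gene expressed in boundaries and known to lie downstream of CUC1. It had 14.7, 6.37 and 12.3 CPM in Dx4, Dx5 and Dx6, against 22.4, 26.4 and 18.5 CPM in CT1, CT2 and CT3, without overlap. Its log2 fold change was -1.01 ± 0.26 (edgeR adjusted p = 0.0139), a call lost without CT2 (0.105) or Dx5 (0.102) and with the dawn-gene covariate (log2 fold change -0.83, 0.103). Its relative LSH4 had a log2 fold change of -0.53 ± 0.22 and was not called (edgeR adjusted p = 0.123).

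BOP2, a co-regulator at the base of leaves and floral organs, averaged 17.7 ± 4.42 CPM with dexamethasone and 28.4 ± 7.05 CPM in mock (SD, n = 3 each). Dx6 lay above CT1, and the call (log2 fold change -0.70 ± 0.22; edgeR adjusted p = 0.0432) was lost without CT2, CT3, Dx4, Dx5 or Dx6 (adjusted p up to 0.234), with library size scaling, with DESeq2 and with limma-voom. Of the exon sequence of BOP2, 14.3% also lies in exons of another gene. The rest stayed under the threshold. STM and KNAT6, meristem homeobox genes that interact with CUC genes, had log2 fold changes of 0.15 and 0.08, and REV, an HD-ZIP III gene of axillary meristems, one of 0.20. HAN, a GATA factor of the border between meristem and organ, averaged 22.3 ± 2.43 CPM with dexamethasone and 15.0 ± 1.60 CPM in mock (SD, n = 3 each) without overlap (log2 fold change 0.57 ± 0.21; edgeR adjusted p = 0.0764). GA2OX4, a gibberellin-inactivating enzyme gene known as a direct target of LAS and picked out here after its counts were seen, had 1, 0 and 1 counts in Dx4, Dx5 and Dx6, against 7, 5 and 3 counts in CT1, CT2 and CT3. It did not pass the filter, and fitted without it the log2 fold change was -2.68 ± 0.96 (edgeR adjusted p = 0.0454).

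Of 13 LBD relatives of LOB and JLO, 3 were tested, of which 1 was higher, against 5.86% of all tested genes. LBD11 had 14.7, 11.7 and 13.2 CPM in Dx4, Dx5 and Dx6, against 8.08, 5.91 and 6.92 CPM in CT1, CT2 and CT3, without overlap. Its log2 fold change was 0.93 ± 0.28 (edgeR adjusted p = 0.0328), and the call was lost without CT2, Dx4, Dx5 or Dx6 (adjusted p up to 0.133), with DESeq2 (log2 fold change 0.93, adjusted p = 0.15) and with the dawn-gene covariate (1.02, 0.113). AS2, a repressor of meristem genes in leaves, and LBD4 were not called, at 0.56 ± 0.34 and 0.17 ± 0.28.

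Of the 7 green tissue and vascular markers 5 were lower, none higher and none at 0, where 8.02% of all tested genes were lower. SUC2 and SEOR1, phloem genes, were among the lower ones (log2 fold changes -0.72 and -0.76), while APL (8.29 CPM with dexamethasone, 6.69 CPM in mock) and XCP1 (10.8 CPM with dexamethasone, 8.63 CPM in mock) were not called. Of 8 dawn-phased clock genes 3 were tested and LNK1 was lower (log2 fold change -1.21 ± 0.22), against 8.02% of all tested genes. PRR9 stood at 0 in Dx6 and CT3 and CDF1 at 0 in Dx4 and CT3. Of 7 floral organ markers 6 were tested and SEP3 was lower (log2 fold change -0.97 ± 0.14), against 8.02% of all tested genes. Of the 6, 3 lay above 0 and 3 below, with a median of -0.06. The part of these markers in the lower levels of ABS2, AT3G11580, LSH3, ATH1 and BOP2 was not tested. With the dawn-gene covariate ATH1 (log2 fold change -0.56, edgeR adjusted p = 0.0401) and BOP2 (-1.10, 0.00226) stayed called, and ABS2, AT3G11580 and LSH3, at the values given above, were not. The dawn-gene sum was lower in every dexamethasone library than in any mock library, but the covariate was the mean log2 CPM of these genes. Of them, LHY, RVE8, PRR9, LNK2 and CDF1 overlapped between the groups. How far the covariate itself separates the groups was not examined, so no conclusion is drawn from these fits.

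**Figure D4:**
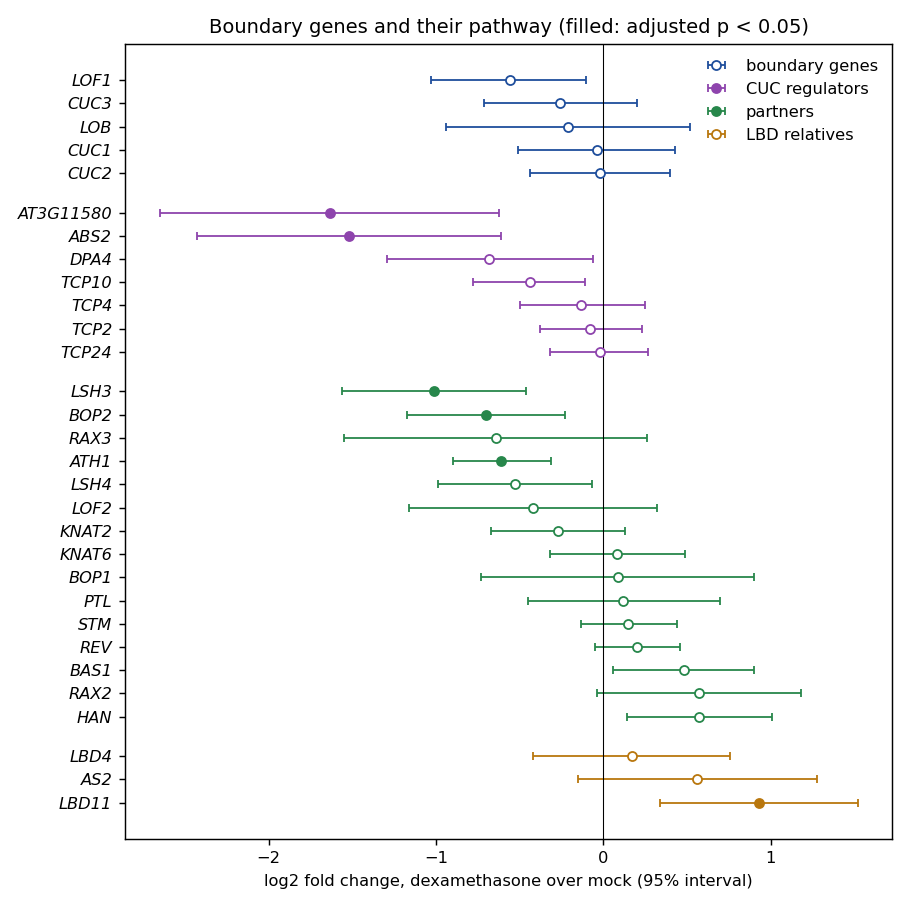
Log2 fold changes of dexamethasone over mock (horizontal axis) with 95% intervals for the 5 tested boundary genes and for tested CUC regulators, partners and LBD relatives. Filled points passed an edgeR adjusted p of 0.05. All 5 boundary genes are open and their intervals, other than that of LOF1, include 0, while ABS2, AT3G11580, LSH3, ATH1 and BOP2 lie below 0 and LBD11 above.

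The profile of LOF1, the boundary gene of highest mean CPM, was compared with 15718 other tested genes by the root mean square difference of log2 CPM over the 6 libraries, each gene centred on its own mean. AT1G11900 (0.0613), AT4G01995 (0.0842) and TOM1 (AT4G21790; 0.0891) came closest, and 284 genes lay within 0.2. TOM1 stood at 90.2, 71.1 and 67.1 CPM in Dx4, Dx5 and Dx6, against 116, 123 and 87.2 CPM in CT1, CT2 and CT3. Its low CT3 and high Dx4, shared with LOF1, follow from the way it was picked. TOM1 was itself called lower (log2 fold change -0.51, edgeR adjusted p = 0.0302), while LOF1 was not.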

How the data were processed

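The deposited table holds raw, unnormalized read counts per locus. The table's name credits them to HTSeq, and the submitters' processing notes name TopHat, Bowtie, RSEM and Cufflinks without roles or versions. Build, annotation, strand setting and read filters: not given in the sources used here. Per the labels' protocols, libraries were made with a stranded mRNA kit. CT columns were taken as mock and Dx columns as dexamethasone, and 3 blank lines were left out. Counts of same-group pairs differed beyond sampling noise, so all 6 were kept. Chi-square per gene was 1.27 to 1.35 for dexamethasone pairs and 2.19 to 5.41 for mock pairs. The mock libraries were thus the less alike, and CT1 and CT3 (5.41) differed almost as much as CT3 and Dx4 (5.5).

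Counts were tested with edgeR 4.0.16 (R 4.3.3) over 15857 genes, with TMM scaling, filterByExpr (minimum count 10) and robust quasi-likelihood tests, two-sided, adjusted by Benjamini-Hochberg at 0.05. The SE is the log2 fold change over the square root of F, and intervals are 95%. CPM are the deposited counts over TMM-scaled library sizes. Intervals of fold changes in the fit with the filter rest on the spread between libraries, while the limit of 3 counts covers counting error only. The fit without the filter, used for LAS, JLO, LBD31, TCP3 and GA2OX4, gave other p-values for the same genes. For LNK2 the edgeR adjusted p was 0.117 with the filter and 1.71e-05 without it, and for CUC3 0.496 and 0.626. Calls without the filter are therefore not on the same footing as the main ones. The edgeR fit was first tested on simulated counts, and the other steps were not. Alternatives were DESeq2 1.42.0, limma-voom (limma 3.58.1), other scalings and filters, a covariate of 8 dawn-phased clock genes, and leaving out each library.

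The 7 genes and all lists were chosen with earlier results of these data known. Named are the 7 genes, AP2, called list members (up to 6 per list; otherwise the 2 of highest level), and the 3 profiles nearest to the called, or else the most abundant, boundary gene. Other list members are named for their role, as values, after their values were seen. The locus of ROX, a list member, had no row in the table used here. Symbols and sequences came from RefSeq (TAIR10.1), where 28009 loci matched.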

Additional observations from a re-analysis of the deposited data

How the results depend on the processing

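CUC3 and LOB kept their direction and stayed uncalled in all 13 alternatives, at log2 fold changes of -0.39 to -0.16 and -0.32 to -0.05. The direction of CUC1 and CUC2, both near 0, was not stable. CUC1 ranged from -0.18 to 0.04 with 1 library left out (above 0 without CT3, 0.04; Dx4, 0.03; or Dx6, 0.02), and CUC2 from -0.10 to 0.06 (above 0 without CT1, 0.06, or Dx6, 0.01) and 0.20 with the dawn-gene covariate, always with an adjusted p of at least 0.731. LOF1 ranged from -0.80 to -0.44 with 1 library left out and was called without CT3 alone (-0.72), so boundary genes called lower numbered 0 to 1, and those called higher 0 throughout. The causes were not tested.

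Over all genes, 441 to 1816 were called higher and 668 to 1974 lower with 1 library left out, and 549 higher and 815 lower with DESeq2, against 929 and 1272. The most calls in both directions came without CT3, the fit in which LOF1 was called. The 4 lists held 2 higher and 5 lower. Without the filter they held 3 and 7, with DESeq2 1 and 3, and with the dawn-gene covariate 1 was higher. With 1 library left out 1 to 2 were higher and 2 to 5 lower. The ratio differences ranged from -0.16 to 0.15 (CUC1 to CUC2) and from -0.40 to -0.05 (CUC3 to CUC1 plus CUC2). No paired analysis was possible because the Dx columns are numbered 4 to 6 and carry no replicate number of the labels, so the fit with a replicate block was not run. Depth limits the low genes most: LAS and JLO were not tested with the filter, and 3 counts correspond to 1.36 to 1.86 CPM.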
